A study of Mus musculus with 11 samples.

Results

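Smco1, Mlf1, Lrrc38, Dhrs7c and Fn3k are 5 little-studied genes whose signals were followed in denervated and innervated mouse muscle. They were chosen by name for large falls in signal after denervation, and all probe sets annotated to them were taken, which gave 6 probe sets. They are 5 of the 12214 genes with a probe set that passed a filter on low values. A single probe set of each of the 5 genes passed this filter, which asked for a signal above the array's own median on at least 2 arrays. The other Fn3k probe set did not pass. Smco1, Lrrc38 and Fn3k lay above that median on 5 of 11 arrays, as many as there were innervated ones, while Mlf1 and Dhrs7c lay above it on all 11. Total RNA of the tibialis anterior, a fast muscle at the front of the shin, was hybridised to 11 Affymetrix arrays. The denervated mutant group (runx1f/-; MCK::cre) had 3 arrays, the denervated control group (runx1f/-) 3, the innervated mutant group 2 and the innervated control group 3. In every group 1 allele of the transcription factor gene Runx1 was floxed and the other was null, and the mutants also carried Cre recombinase under the muscle creatine kinase promoter, which is active in muscle fibres. The titles give 3 days of denervation, but the treatment note of denervated control 3 gives 5. No ages are given, and nothing says that replicates came from separate animals, so p-values measure only the spread between samples, which may be technical. Since Cre was present in mutants alone, an effect of Cre and of targeting Runx1 cannot be told apart.

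Muscle fibres depend on their nerve not only for contraction but for the upkeep of much of their gene expression, and cutting the nerve lowers many transcripts of mature fibres. None of the 5 genes belongs to the well-known contractile or receptor families. Smco1 encodes a single-pass membrane protein with coiled coils. Mlf1 encodes myeloid leukemia factor 1, first known in humans from a fusion with nucleophosmin. The product of Lrrc38 is a leucine-rich repeat protein that, with human proteins in cultured cells, acts as an auxiliary gamma subunit of the BK potassium channel. Dhrs7c encodes a short-chain dehydrogenase of the sarcoplasmic reticulum, the calcium store of the fibre, that acts on retinol. Fn3k encodes fructosamine 3-kinase, which removes sugar adducts from glycated proteins.

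RefSeq promoter windows on GRCm38.p6, from 250 bases before to 50 bases after the annotated start, were held for 3 of the genes and are shown because these genes lost signal together. Dhrs7c and Fn3k had no entry. Each sequence runs 5′ to 3′ on the plus strand, and capitals mark matches to the motifs searched.
Smco1: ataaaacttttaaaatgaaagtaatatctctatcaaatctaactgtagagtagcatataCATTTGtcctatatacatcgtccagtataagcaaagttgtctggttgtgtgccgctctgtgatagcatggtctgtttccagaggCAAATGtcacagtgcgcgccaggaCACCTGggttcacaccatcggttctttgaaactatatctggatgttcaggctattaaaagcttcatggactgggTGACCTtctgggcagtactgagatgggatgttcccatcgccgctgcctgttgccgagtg
Mlf1: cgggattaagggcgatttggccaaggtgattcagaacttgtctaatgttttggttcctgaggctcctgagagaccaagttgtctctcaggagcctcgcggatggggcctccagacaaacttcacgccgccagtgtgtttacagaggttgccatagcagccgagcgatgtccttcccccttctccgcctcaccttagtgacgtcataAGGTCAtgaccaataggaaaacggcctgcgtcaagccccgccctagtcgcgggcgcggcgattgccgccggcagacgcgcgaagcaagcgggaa
Lrrc38: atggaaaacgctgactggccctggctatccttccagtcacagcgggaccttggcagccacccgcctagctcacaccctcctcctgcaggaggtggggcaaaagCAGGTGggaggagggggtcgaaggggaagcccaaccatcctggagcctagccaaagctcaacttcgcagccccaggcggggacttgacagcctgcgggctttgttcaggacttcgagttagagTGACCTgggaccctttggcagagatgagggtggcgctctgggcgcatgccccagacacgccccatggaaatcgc
The windows lie at chr16:32271230-32271529 for Smco1, chr3:67373847-67374146 for Mlf1 and chr4:143349500-143349799 for Lrrc38. All 3 held AGGTCA, the core site of many nuclear receptors, or its reverse complement TGACCT, which 16.3% of 32851 promoter windows held. Counting the last base before the start as -1, the match began at -9 in Smco1, -44 in Mlf1 and -24 in Lrrc38, on the minus strand in Smco1 and Lrrc38. The E-box CANNTG, the pattern that myogenic factors bind, matched 3 times in Smco1 and once in Lrrc38, against 72.3% of all windows with at least 1 match. No marked match overlapped another. Searched on both strands, the RUNX letters TGTGGT or TGCGGT (22.4% of windows), the MCAT letters CATTCC (14.7%), TATAAA (13.6%), the MEF2 motif (3.19%) and the CArG box (1.63%) had no match in the 3 windows, which says only that these letters are not there. GC content was 44.3% in Smco1, 58.3% in Mlf1 and 62.7% in Lrrc38, where the median window had 52.7%. A match of letters is a description and not a binding site.

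Values below are probe set signals in intensity units, which the authors had scaled to one trimmed mean on every array, and log2 changes are on the log2(signal + 16) scale. Errors of signals are SDs between arrays, and errors of log2 changes are standard errors of the limma fit. Signals of different probe sets are not compared, because probes differ in brightness. The trp control probe sets, which match a bacterial RNA that is normally not added to the sample, ranged from 13.8 to 440 over the arrays and serve as the background level. Because denervation chose the genes, their falls are described without a test. For 5 of 5 genes every denervated array lay below every innervated array, in mutant and in control muscle. That order was shared by 32% of the 26170 tested probe sets in mutant muscle and 20.4% in control muscle, and limma called 13.3% and 14.4% of probe sets lower. In bulk RNA, fewer cells of a type and less RNA per cell cannot be told apart.

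**Figure D1:**
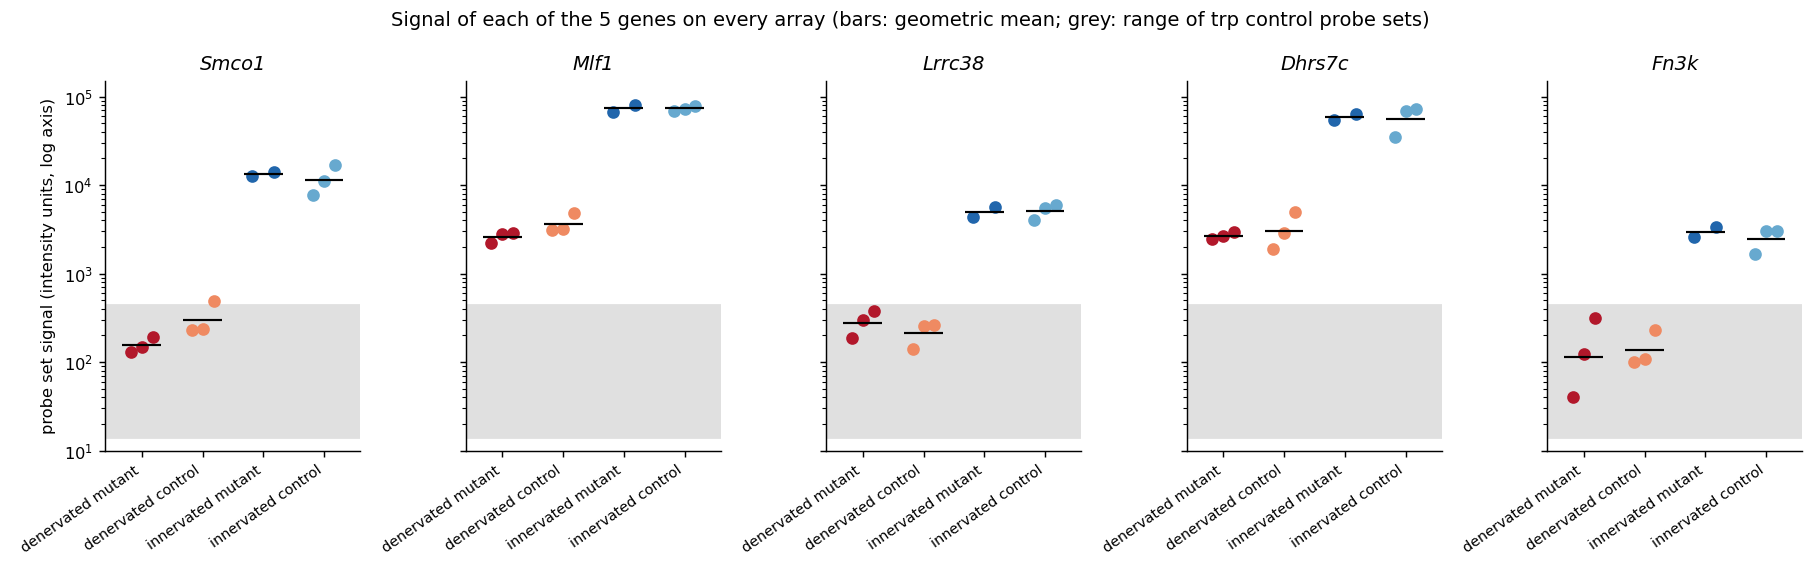
Signal of the tested probe set of each gene on every array (intensity units, log axis), with denervated mutant, denervated control, innervated mutant and innervated control arrays from left to right in each panel. Bars are geometric means and the grey band spans the trp control signals of all arrays, 13.8 to 440; the denervated arrays of Mlf1 and Dhrs7c lie above the band, and those of Lrrc38 and Fn3k lie within it.

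Smco1 had the deepest fall of the 5 genes. Its signals were 148, 129 and 194 on the denervated mutant arrays, against 12606 and 13974 on the innervated mutant arrays. In control muscle they were 488, 230 and 239 on the denervated arrays, against 16910, 7725 and 11174 on the innervated arrays. The 3 denervated mutant arrays were the lowest of all 11, and the 3 denervated control arrays came next without overlapping them. The mean of denervated mutant muscle, 157 ± 33.4 (n = 3), was 1.18% of the innervated mutant mean of 13290 ± 967 (n = 2). The mean of denervated control muscle, 319 ± 146 (n = 3), was 2.67% of the innervated control mean of 11936 ± 4640 (n = 3). The fall was 77.7-fold in mutant muscle (log2 change -6.28 ± 0.35) and 35.9-fold in control muscle (log2 change -5.17 ± 0.31). On 2 of the 3 denervated mutant arrays Smco1 was at or below the highest trp signal of the same array, so the size of that fold depends on background. With signals raised to that highest trp signal, the mutant fall was 73.9-fold and the control fall was again 35.9-fold. Measured from the innervated mean of the same genotype, single denervated mutant arrays lay between -6.52 and -5.98 in log2, and single denervated control arrays between -5.53 and -4.50. Among 12214 genes the fall ranked 2nd in mutant and 4th in control muscle.

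Mlf1 was bright when innervated and still well measured after denervation. The denervated mutant arrays had 2813, 2207 and 2894, against 67851 and 80121 on the innervated mutant arrays. The denervated control arrays had 3134, 3222 and 4853, against 73195, 68925 and 79281 on the innervated control arrays. Every denervated array lay above the trp range, and the denervated mutant arrays all lay below the denervated control arrays. Mlf1 fell 28.0-fold in mutant muscle (log2 change -4.81 ± 0.20), to 2638 ± 375 (n = 3) in denervated muscle against 73986 ± 8676 (n = 2) in innervated muscle. In control muscle the fall was 20.0-fold (log2 change -4.33 ± 0.18), with 3737 ± 968 (n = 3) in denervated against 73800 ± 5205 (n = 3) in innervated muscle. Among the 5 genes Mlf1 varied least between arrays of a group, with a pooled SD of 0.24 in log2, equal to the median of all genes at this rounding. Its fall ranked 5th in mutant and 9th in control muscle.

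Dhrs7c, the retinol-active enzyme of the sarcoplasmic reticulum, was the other gene that stayed above the trp range. Its signals were 2470, 2675 and 2929 on the denervated mutant arrays, against 55079 and 63421 on the innervated mutant arrays. They were 2866, 1879 and 4987 on the denervated control arrays, against 68890, 35274 and 72364 on the innervated control arrays. The denervated mutant arrays stood close together and inside the spread of the denervated control arrays, so the genotypes overlapped in denervated muscle. The fall was 21.9-fold in mutant muscle (log2 change -4.45 ± 0.35) and 18.6-fold in control muscle (log2 change -4.22 ± 0.32). Means were 2691 ± 230 (n = 3) in denervated and 59250 ± 5898 (n = 2) in innervated mutant muscle. In control muscle they were 3244 ± 1588 (n = 3) in denervated and 58843 ± 20485 (n = 3) in innervated muscle. The gene ranked 9th by its fall in mutant and 10th in control muscle.

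Lrrc38, the BK channel subunit, fell in both genotypes into the range that the trp signals spanned over all arrays. On each denervated mutant array it still lay above the highest trp signal of the same array. Its signals were 187, 296 and 382 on the denervated mutant arrays, against 4386 and 5710 on the innervated mutant arrays. They were 257, 264 and 141 on the denervated control arrays, against 5552, 3981 and 5897 on the innervated control arrays. Here the highest denervated arrays were mutant, and the genotypes overlapped. The fall was 17.1-fold in mutant muscle (log2 change -4.10 ± 0.33) and 22.2-fold in control muscle (log2 change -4.47 ± 0.30). Since 2 of the 3 denervated control arrays were at or below their highest trp signal, the control fold was 17.0 with signals raised to that level, and the mutant fold stayed 17.1. Means were 288 ± 97.3 (n = 3) in denervated and 5048 ± 937 (n = 2) in innervated mutant muscle. They were 221 ± 68.9 (n = 3) in denervated and 5143 ± 1021 (n = 3) in innervated control muscle. Its fall ranked 18th in mutant muscle.

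Fn3k had the least certain level after denervation. The denervated mutant arrays had 312, 40.3 and 122, against 2611 and 3334 on the innervated mutant arrays. The denervated control arrays had 231, 109 and 99.1, against 3028, 1677 and 3043 on the innervated control arrays. All 6 denervated arrays lay in the trp range, and denervated mutant 1 and 2 marked the highest and the lowest of them. The fall was 21.7-fold in mutant muscle (log2 change -4.44 ± 0.60) and 16.4-fold in control muscle (log2 change -4.04 ± 0.54). In each genotype 2 of the 3 denervated arrays were at or below their highest trp signal, and with signals raised to it the folds were 13.8 in mutant and 10.96 in control muscle. Means were 158 ± 140 (n = 3) in denervated and 2972 ± 512 (n = 2) in innervated mutant muscle, and 146 ± 73.4 (n = 3) in denervated and 2583 ± 785 (n = 3) in innervated control muscle. The untested Fn3k probe set was above its array's median on 0 of 11 arrays and averaged 214 ± 66.5 in denervated mutant, 195 ± 131 in denervated control, 314 ± 44.2 in innervated mutant and 355 ± 117 in innervated control muscle. Its log2 change was -0.56 in mutant and -1.06 in control muscle, within the background range, so the 2 probe sets of Fn3k do not give the same size of fall.

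Ranked by group mean of log2 signals, 4 of the genes (Smco1, Mlf1, Dhrs7c and Fn3k) ran from innervated mutant through innervated control and denervated control to denervated mutant. For Fn3k the means of the signals themselves put denervated mutant above denervated control. For Lrrc38 innervated control was highest and denervated control lowest. The 2 innervated groups overlapped for all 5 genes, and the 2 denervated groups overlapped for Lrrc38, Dhrs7c and Fn3k. Denervated and innervated arrays separated for every gene.

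**Figure D2:**
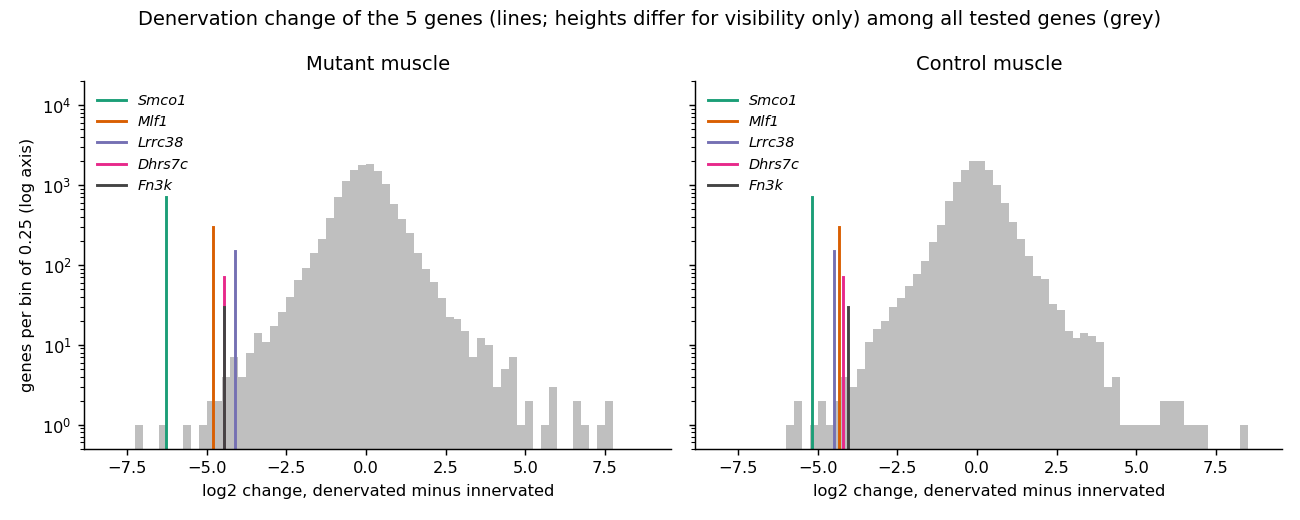
Log2 change, denervated minus innervated, of 12214 genes in bins of 0.25 (grey; gene count on a log axis), with mutant muscle on the left and control muscle on the right. Coloured lines mark the 5 genes, whose changes run from -6.28 to -4.10 in mutant and from -5.17 to -4.04 in control muscle; line heights carry no value.

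The median of all genes changed by -0.01 in log2 in each genotype, and the median of the 5 genes was -4.45 in mutant and -4.33 in control muscle. The genes next to them in rank, by the fall in control muscle, show how thin this end of the distribution was. Aqp4, a water channel of muscle, stood just above Smco1 in control muscle with -2.97 in mutant and -5.62 in control muscle, and Ky, a peptidase-like protein of the Z-disc, stood just below it with -4.56 and -4.76. Atp1b4, a member of the sodium pump beta subunit family, lay just above Lrrc38 with -4.79 in mutant and -4.75 in control muscle. Prima1, which anchors acetylcholinesterase in membranes, ranked between Dhrs7c and Fn3k in control muscle, with -1.36 in mutant and -4.14 in control muscle. Cntnap2, a neurexin-related adhesion protein, followed Fn3k with -3.45 in mutant and -4.03 in control muscle. The places of Lrrc38 and Fn3k in that order rest in part on denervated arrays at or below their highest trp signal. So does that of Aqp4, through denervated control 1.

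The genes with the most similar profile were found by the root mean square difference of centred log2 signals over the 11 arrays, a description in which the fall itself carries most of the likeness. Mlf1 and Dhrs7c were 0.34 apart, which made Mlf1 the nearest of 12213 genes to Dhrs7c and Dhrs7c the 3rd nearest to Mlf1. Nearest to Mlf1 was Ky at 0.30, followed by 2310065F04Rik at 0.34. For Lrrc38 the closest were Map2k6, a kinase that activates p38, at 0.49, 2310065F04Rik at 0.50 and Ky at 0.51. Dhrs7c had 2310065F04Rik at 0.41 and Ky at 0.45 after Mlf1. For Fn3k they were Cntnap2 at 0.62, 2310065F04Rik at 0.64 and Mlf1 at 0.66. Smco1 stood farther from its neighbours, with Kcnc1, a voltage-gated potassium channel, at 0.60, Perm1, a muscle regulator of mitochondrial genes, at 0.70 and Mlf1 at 0.73. Kcnc1 had log2 changes of -5.19 in mutant and -4.75 in control muscle, and Perm1 had -7.16 and -5.73.

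Within groups the genes did not vary alike. The pooled SD between arrays of a group was 0.46 in log2 for Smco1, 0.41 for Lrrc38, 0.49 for Dhrs7c and 0.80 for Fn3k, against a median of 0.24 over all genes. Innervated control 2 was the lowest of the 3 innervated control arrays for 5 of 5 genes, and for 40.5% of all genes. Relative to the mean of innervated control 1 and 3, it was lower by 1.00 in log2 for Dhrs7c, 0.85 for Fn3k, 0.83 for Smco1, 0.52 for Lrrc38 and 0.14 for Mlf1, while the median of all genes differed by -0.01. Denervated control 3, the array with the note of 5 days, was the highest denervated control array for Mlf1 and Dhrs7c and the lowest for Lrrc38 and Fn3k. Over the 11 arrays, deviations from the group means correlated at r = 0.69 between Mlf1 and Dhrs7c, 0.55 between Smco1 and Fn3k and -0.36 between Mlf1 and Lrrc38. These coefficients describe the same arrays, share each array's scaling, and are given without a test.

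**Figure D3:**
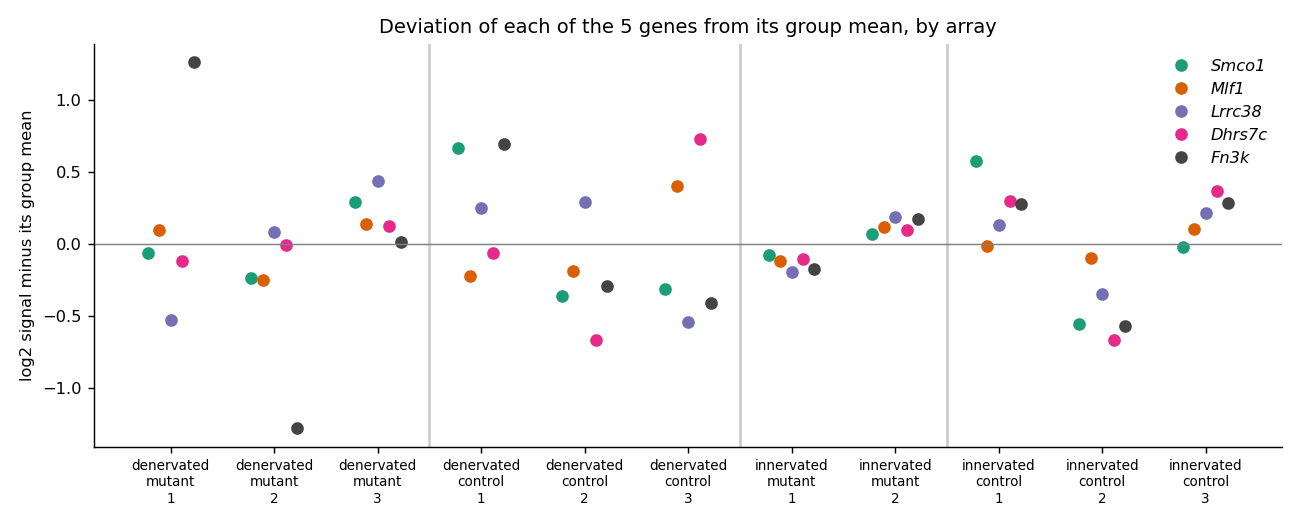
Deviation of each gene's log2 signal from its group mean (vertical axis) on the 3 denervated mutant, 3 denervated control, 2 innervated mutant and 3 innervated control arrays. All 5 points of innervated control 2 lie below 0, and the widest points are those of Fn3k on denervated mutant 1 and 2.

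Whether the genes differed between genotypes was tested, since the choice of genes used the denervation contrast; their low level after denervation was nevertheless in view when they were chosen. In denervated muscle 0 of 5 genes passed limma's adjusted threshold of 0.05, where 1.83% of all probe sets did. Smco1 was nearest, with mutant minus control at -0.89 ± 0.31 (95% interval -1.56 to -0.21, limma adjusted p = 0.248). Mlf1 had -0.48 ± 0.18 (95% interval -0.86 to -0.10, limma adjusted p = 0.283). For both genes the 3 denervated mutant arrays lay below the 3 denervated control arrays, an order that 10.1% of probe sets showed. The exact two-sided permutation test gave p = 0.1 for each, the smallest that 3 against 3 arrays allow. Without denervated control 1 the Smco1 difference was -0.55 (limma adjusted p = 0.615), and without denervated control 3 the Mlf1 difference was -0.28 (limma adjusted p = 0.492). In denervated mutant muscle Smco1 was near background, and with the largest pseudocount tried its difference was -0.45. Lrrc38 differed by 0.36 ± 0.30 (95% interval -0.28 to 1.00, limma adjusted p = 0.737), Dhrs7c by -0.16 ± 0.32 (-0.84 to 0.52, limma adjusted p = 0.920) and Fn3k by -0.16 ± 0.54 (-1.32 to 1.00, limma adjusted p = 0.956). These intervals leave room for differences of up to 1 log2 unit or more in some genes, so they do not show that the genotypes were alike.

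In innervated muscle, again 0 of 5 genes passed, and 0% of probe sets did with limma. Of the 26170 tested, 1030 had an unadjusted limma p under 0.05, fewer than that threshold gives on average without any difference. A fit without the variance trend called 3. The mutant minus control differences were 0.23 ± 0.35 for Smco1, 0.00 ± 0.20 for Mlf1, -0.02 ± 0.33 for Lrrc38, 0.08 ± 0.35 for Dhrs7c and 0.24 ± 0.60 for Fn3k. Mlf1 had the narrowest 95% interval, from -0.43 to 0.43, and Fn3k the widest, from -1.05 to 1.54. The interaction, the amount by which the fall in mutant muscle exceeded or missed the fall in control muscle (mutant minus control), was -1.11 ± 0.47 for Smco1 (95% interval -2.12 to -0.10, limma adjusted p = 0.586) and -0.48 ± 0.27 for Mlf1 (-1.05 to 0.09, limma adjusted p = 0.738). It was 0.38 ± 0.44 for Lrrc38, -0.23 ± 0.47 for Dhrs7c and -0.40 ± 0.80 for Fn3k, with limma adjusted p between 0.914 and 0.954. For the interaction 0 of 5 genes passed, against 0.248% of probe sets. The interaction compares the denervation changes on which the genes were chosen, so its intervals and p-values are not free of that choice. Runx1, the targeted gene, had signals of 20403 to 23185 in denervated mutant and 23499 to 25898 in denervated control muscle on its brightest probe set, which was not matched to the deleted part of the gene and so checks nothing about the deletion.

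**Figure D4:**
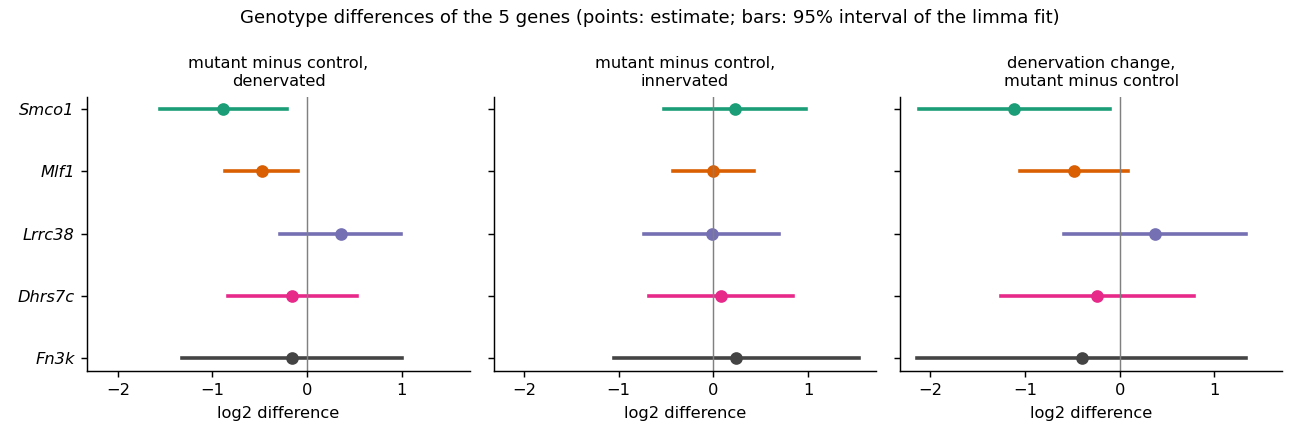
Log2 differences with 95% intervals of the limma fit for the 5 genes: mutant minus control in denervated muscle (left), in innervated muscle (middle), and the difference in denervation change (right). In denervated muscle the intervals of Smco1 (-1.56 to -0.21) and Mlf1 (-0.86 to -0.10) lie below 0, before adjustment over all probe sets.

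Genes related to the 5 by family, complex or pathway were followed in lists, which name 104 genes, 78 of them tested. In mutant muscle limma called 13.1% of all probe sets higher and 13.3% lower with denervation, and in control muscle 14.9% and 14.4%. Of the nearest relatives of the 5, 5 of 10 were tested; 1 fell in mutant and 3 fell in control muscle, with list medians of -0.25 and -0.50. Lrrc52, another gamma subunit of the BK channel, had log2 changes of -1.67 ± 0.51 in mutant (limma adjusted p = 0.0281) and -1.85 ± 0.46 in control muscle (limma adjusted p = 0.00765). Its mutant call ended without innervated mutant 1 (adjusted p = 0.167) or 2 (0.0690), or denervated mutant 1 (0.0770) or 2 (0.0828), with quantile normalization (0.0801), with median scaling (0.0702) and in a fit of the mutant arrays alone (0.0611). Dhrs7 and Dhrs7b, dehydrogenases of the same family as Dhrs7c, changed by -0.17 and -0.25 in mutant muscle, where they did not pass, and fell by 0.85 and 0.50 in control muscle. The control call of Dhrs7b ended without denervated control 2 (adjusted p = 0.0651) or innervated control 1 (0.0688) or 3 (0.0573), with median scaling (0.0730) and in a fit of the control arrays alone (0.0610). Mlf2, the paralog of Mlf1, had -0.21 in mutant and -0.33 in control muscle and did not pass, although it passed in control muscle without innervated control 2 (-0.52, adjusted p = 0.0153). Smco4 had -0.40 and -0.39 and did not pass. Smco2, Smco3, Lrrc26, Lrrc55 and Fn3krp were not analysed here.

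The pore of the BK channel, Kcnma1, fell by 1.15 on the log2 scale in mutant muscle (limma adjusted p = 0.00572) and by 1.25 in control muscle (limma adjusted p = 0.00129), beside log2 changes of -4.10 and -4.47 in its gamma subunit gene Lrrc38. Without innervated mutant 1 the mutant call of Kcnma1 ended (-0.95, adjusted p = 0.0699). The beta subunit gene Kcnmb4 had -0.42 in mutant and -1.39 in control muscle and did not pass. With Lrrc52, 2 of the 3 tested BK channel genes fell in each genotype. The denervated means of Lrrc52, 202 ± 142 in mutant and 182 ± 35.7 in control muscle, lay within the trp range. The size of its fall therefore depends on background.

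Of 21 tested genes of retinoid metabolism and signalling, the pathway in which Dhrs7c acts, 3 rose and 6 fell in mutant muscle, and 3 rose and 8 fell in control muscle. The list medians were -0.04 and -0.27. Dhrs7 and Dhrs7b, already counted among the nearest relatives, stand in this list too and are among its falls in control muscle. Rxrg, a retinoid X receptor, had the smallest p and fell by 3.04 on the log2 scale in mutant muscle (limma adjusted p = 1.44e-06) and fell by 2.39 in control muscle (limma adjusted p = 2.97e-06). Aldh1a1, which oxidises retinal to retinoic acid, fell by 1.76 and 2.05, while Aldh1a2, another such enzyme, had 1.15 in mutant muscle and rose by 1.36 in control muscle. Rdh14, a retinol dehydrogenase, had -0.51 in mutant and -0.63 in control muscle. Mutant calls ended without innervated mutant 1 for Aldh1a2 (0.82, adjusted p = 0.0654) and without innervated mutant 2 for Rdh14 (-0.48, adjusted p = 0.0710). With median scaling Rdh14 had -0.20 in mutant muscle (adjusted p = 0.437).

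Of 32 tested genes of the sarcoplasmic reticulum and triad, where the Dhrs7c protein lies, 6 rose and 15 fell in mutant muscle, and 6 rose and 17 fell in control muscle. Hrc, a calcium-binding protein of the reticulum, fell by 1.99 and 1.70 on the log2 scale, and Jph1, which ties the reticulum to the fibre membrane, fell by 1.59 and 1.27. Atp2a2, the slow-fibre calcium pump, rose by 1.54 in mutant and 1.85 in control muscle. Pln, the inhibitor of that pump, had 0.78 in mutant muscle and rose by 3.46 in control muscle, and its interaction of -2.69 passed (limma adjusted p = 0.0112), a call that ended without innervated mutant 2 (adjusted p = 0.0545). The mutant change of Pln passed at an adjusted p of 0.0479 and failed without innervated mutant 1 (0.175) or 2 (0.140), denervated mutant 2 (0.138) or 3 (0.160), denervated control 2 (0.0615) or innervated control 1 (0.0539) or 3 (0.0511). It also failed with the replicate block (0.0732), the largest pseudocount (0.0545), no filter on low values (0.0689) and no variance trend (0.0756).

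The 11 tested partners of the MLF1 protein, known mostly from human cells, gave 4 rises and 0 falls in mutant and 5 rises and 0 falls in control muscle. Npm1, the nucleolar protein of the human fusion, rose by 0.89 in mutant and 0.82 in control muscle, and Dnajb6, a co-chaperone, by 0.91 and 0.85. Ywhaz, a 14-3-3 protein, and Hax1 had 0.73 and 0.85 in mutant muscle and rose by 0.87 and 0.90 in control muscle. The mutant calls ended without innervated mutant 2 for Ywhaz (0.58, adjusted p = 0.0782) and without innervated mutant 1 for Hax1 (0.80, adjusted p = 0.0532). Of 10 tested genes of deglycation and the glyoxalase pathway, to which Fn3k is related by function, 2 rose and 1 fell in each genotype. Lgals3, a lectin that binds glycated proteins and also stands in the macrophage list, rose by 4.74 in mutant and 3.89 in control muscle. Pgp, a phosphatase, had -0.69 in mutant muscle and fell by 1.12 in control muscle; Ddost had 0.56 and rose by 0.57. Glod4 had 0.41 and 0.29 and did not pass. The mutant call of Pgp ended without innervated mutant 2 (-0.49, adjusted p = 0.187) or denervated mutant 2 (-0.62, 0.0665) and with median scaling (-0.38, 0.197), and that of Ddost without innervated mutant 1 (0.0992) or 2 (0.0828) or denervated mutant 1 (0.0696) or 3 (0.0549).

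**Figure D5:**
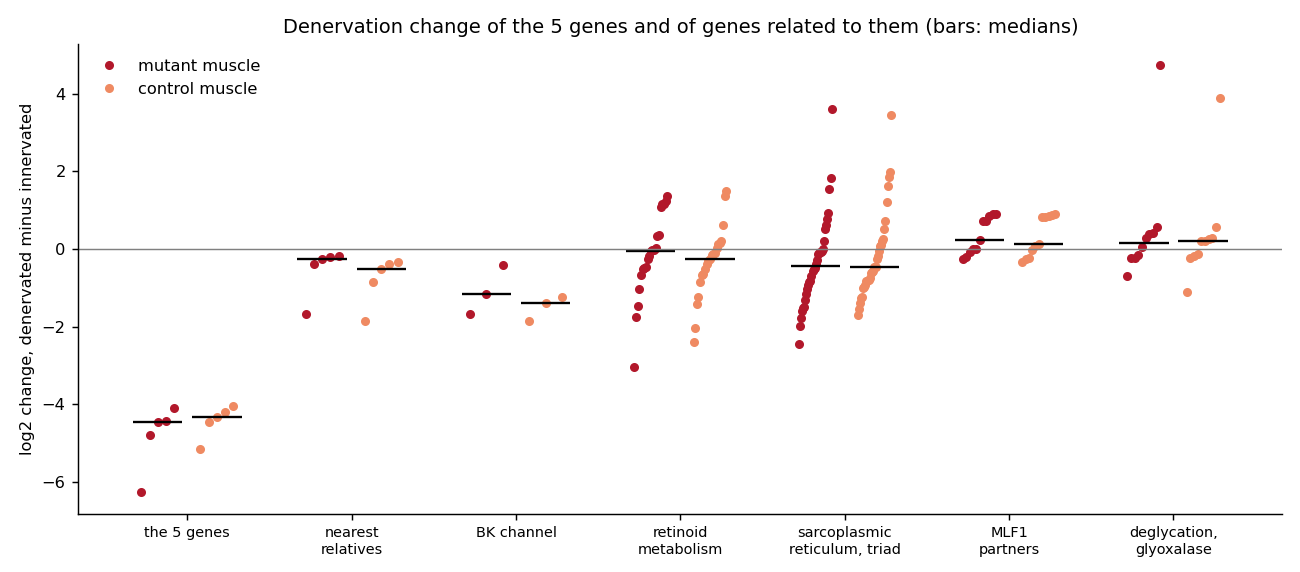
Log2 change, denervated minus innervated, of the 5 genes and of the tested genes in each related list, with mutant muscle (dark red) left of control muscle (orange); each point is a gene and bars are medians. The 5 genes lie between -6.28 and -4.04, and the list medians lie between -1.39 and 0.24.

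The balance of rises and falls in the sarcoplasmic reticulum and retinoid lists changed with the scaling of the arrays, while the 5 genes were lower after denervation in every scaling tried. The MLF1 partners had 0 falls and the BK channel genes 0 rises in each of these scalings. Centring on the hybridisation spike-in RNAs moved the median of all probe sets to 0.34 in mutant and 0.69 in control muscle. The called probe sets became 6091 higher and 1034 lower in mutant and 12487 higher and 826 lower in control muscle. The spike-in probe sets included those for Cre, which the mutants themselves carried. Whether this shifted the reference between genotypes was not tested, so mutant and control values under this centring are not set against each other. Scaling to equal medians gave 5814 higher and 1618 lower in mutant muscle, with a median of 0.21, and the retinoid list then had 5 rises and 3 falls in mutant muscle. Under spike-in centring the sarcoplasmic reticulum list had 6 rises and 9 falls in mutant and 12 rises and 5 falls in control muscle, the retinoid list 5 rises and 2 falls in mutant and 5 rises and 3 falls in control muscle, and the nearest relatives 0 calls. Kcnma1, Lrrc52, Rdh14 and Pgp did not pass in either genotype under that centring, and neither did Dhrs7 and Dhrs7b in control muscle, where Rdh14 (0.08) and Dhrs7b (0.21) turned positive. The log2 changes of the 5 genes then ran from -5.85 to -3.67 in mutant muscle and from -4.46 to -3.33 in control muscle.

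The chromosomal neighbours of the 5 genes were followed as well. Of the 10 nearest protein-coding genes on either side, 5 were tested. Pdpn, next to Lrrc38 and coding for a membrane glycoprotein, rose by 1.74 on the log2 scale in mutant muscle (limma adjusted p = 1.37e-05) and by 1.54 in control muscle (limma adjusted p = 9.96e-06). Wdr53 and Rnf168 beside Smco1, Rsrc1 beside Mlf1 and Tbcd beside Fn3k did not pass in either genotype, with log2 changes between -0.10 and 0.46 in mutant and between -0.35 and 0.36 in control muscle.

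Markers of cell types moved with denervation too, and their part in the falls of the 5 genes was not tested. Of 16 fast-fibre markers, 15 fell in mutant and 13 in control muscle. Their medians were -0.58 and -0.47, against -4.45 and -4.33 for the 5 genes. Single markers of this list ranged from -3.78 to -0.46 in mutant and from -2.38 to -0.34 in control muscle. With quantile normalization 6 of the fast-fibre markers fell in mutant and 5 in control muscle, and with spike-in centring 4 and 2. Their summed signal was 1943200 to 2377710 in denervated mutant against 3316230 to 3808950 in innervated mutant muscle, and 1970830 to 2722880 in denervated control against 3205380 to 3590570 in innervated control muscle. Some of these markers lay at the top of the signal scale. Tnnt3 averaged 287320 in innervated mutant muscle, where the highest signals of any probe set were 270458 and 304181. Whether that limit made their falls look smaller was not tested. The lowest single signal of a fast-fibre marker was 5884, in denervated mutant muscle. Of 12 macrophage and leukocyte markers, 10 rose in mutant and 6 in control muscle. Their summed signal was 108571 to 120382 in denervated mutant against 22629 to 25222 in innervated mutant muscle, and 84292 to 123976 in denervated control against 27785 to 38862 in innervated control muscle. Such sums weigh the brightest probe sets most. Lgals3 alone averaged 42393 in denervated and 1628 in innervated mutant muscle, and 37420 and 2356 in control muscle, where 6 of the 12 markers did not pass. Of 10 endothelial markers, 4 fell in mutant and 6 in control muscle (0 in either with spike-in centring), and of 8 satellite cell markers, 2 rose and 2 fell in mutant and 4 rose and 1 fell in control muscle. Of 7 fibroblast markers 1 fell in mutant and 0 in control muscle, of 4 Schwann cell and nerve markers 1 rose and 1 fell in each genotype, and of 4 adipocyte markers 0 fell in mutant and 1 in control muscle.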

How the data were processed

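RNA of mouse tibialis anterior was measured on 11 arrays of 45101 probe sets. The values deposited by the authors are linear signal intensities per probe set. They show that each array had been scaled to a mean of about 2500 with 2% trimmed at each end; no software is named in the labels. The median signal was 442.5 to 604.6 per array; precision is limited by how many arrays each group has. Groups came from the titles. The supplied platform annotation named the probe sets, and 34958 had exactly 1 gene symbol. Signals were used as log2(signal + 16) without further scaling. The 64 control probe sets were left out, and probe sets above their array's median on at least 2 arrays were kept, 26170 in all. The brightest kept probe set on average stood for its gene.

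A model of group means was fitted to all 11 arrays with limma 3.58.1 in R 4.3.3 (eBayes with trend), with Benjamini-Hochberg adjustment over all kept probe sets and a threshold of 0.05. The 5 comparisons were denervation in mutant and in control muscle, the genotypes (mutant minus control) in either state of innervation, and the interaction. The fits of the genotype and interaction comparisons were also tried on simulated arrays with independent noise. The denervation comparisons and the scaling of arrays were not simulated. Members and lists were chosen with earlier results of these data known, so neither is independent evidence. From each list the text names the relatives of the 5 genes and up to 4 genes with the smallest p for denervation in control muscle; other genes named are the 3 with the most similar profile, the neighbours in rank and on the chromosome, and Runx1. Intervals and summaries were made with SciPy 1.17.1 and pandas 2.3.3 in Python 3.11.15.

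Equal replicate numbers were checked for pairing. Among control arrays, the deviations of denervated and innervated replicates 1, 2 and 3 from their group means correlated with r of 0.11, 0.22 and 0.30, and r lay between -0.18 and 0.10 for other pairs of groups, so a replicate block was tried. Other alternatives changed the pseudocount, the scaling, the filter, the variance model and the arrays in the fit. The block on control arrays alone and the floor at the highest trp signal were chosen after seeing the data.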

Additional observations from a re-analysis of the deposited data

Results flagged for a closer look

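Among the genes named, 2 that are not among the 5 had a denervation change that differed between mutant and control muscle by the test of the interaction. Aqp4, the neighbour of Smco1 in rank in control muscle, had signals of 3238, 2334.5 and 1847 on the denervated mutant arrays, against 19084 and 18999 on the innervated mutant arrays. On the denervated control arrays it had 309, 460 and 277, against 17249, 26732 and 11690 on the innervated control arrays. The denervated mutant arrays all lay above the denervated control arrays. On denervated control 1 Aqp4 lay below that array's highest trp signal of 440, so the size of its control fall depends on background. The log2 changes were -2.97 in mutant and -5.62 in control muscle. The interaction was 2.65 in log2 (limma adjusted p = 0.0257), and 2.04 with the largest pseudocount. It kept its sign in all alternatives run, but did not pass without the variance trend (adjusted p = 0.109) or without denervated mutant 1 (0.0543) or 2 (0.0595), denervated control 1 (0.0785), innervated mutant 1 (0.0893) or 2 (0.109) or innervated control 1 (0.0702).

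Pln, the pump inhibitor of the sarcoplasmic reticulum list, had 1265, 2120 and 2314 on the denervated mutant arrays, against 1037 and 1098 on the innervated mutant arrays. On the denervated control arrays it had 7680, 11373 and 12592, against 1058, 888 and 830 on the innervated control arrays. The interaction was -2.69 (limma adjusted p = 0.0112). It kept its sign in all alternatives run, and did not pass without the variance trend (adjusted p = 0.0561) or without innervated mutant 2 (0.0545). No group held enough arrays to look for single outlying arrays by the gap to the nearest other.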

How the results depend on the processing

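In all alternatives run the 5 genes were lower in denervated muscle, and 0 of 5 passed for genotype or interaction. The smallest limma adjusted p was 0.0764, for Smco1 in denervated muscle under spike-in centring, whose reference included Cre probe sets. Of 247 alternative denervation values 232 moved by less than the spread between replicates and 15 by more, mostly under the largest pseudocount or spike-in centring; under that pseudocount Smco1 lay at -5.04 in mutant and -4.36 in control muscle. Counts of called probe sets moved more. Spike-in centring called 13313 for denervation in control muscle, and without the variance trend limma called 279 for genotype in denervated muscle, 3 in innervated muscle and 10 for the interaction. Leaving out 1 array gave 4337 to 8082 for denervation in mutant muscle, 223 to 638 for genotype in denervated muscle, 0 to 12 in innervated muscle and 16 to 108 for the interaction. With the replicate block on all arrays these were 6083, 460, 0 and 45, and 7515 for denervation in control muscle (8312 on control arrays alone); no call of the 5 genes changed with it.

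Of 343 genotype and interaction values of the genes 26 changed sign, each on a difference that did not pass. In innervated muscle Mlf1 had -0.0244 with quantile normalization, -0.13 with median scaling and -0.0131 with spike-in centring, Lrrc38 0.000685 with quantile normalization and 0.000226 with the replicate block, and Dhrs7c -0.0515 with median scaling. Fn3k had 0.00429 in denervated muscle with the largest pseudocount, and its other probe set gave 0.39 in denervated muscle, -0.12 in innervated muscle and 0.51 for the interaction. Leaving out 1 array gave, in innervated muscle, -0.0506 to 0.51 for Smco1, -0.12 to 0.12 for Mlf1, -0.21 to 0.17 for Lrrc38, -0.26 to 0.26 for Dhrs7c and -0.0410 to 0.42 for Fn3k. In denervated muscle it gave -0.49 to 0.21 for Dhrs7c and -0.79 to 0.48 for Fn3k, and for the interaction -0.57 to 0.13 and -1.03 to 0.24. The cause was not tested. The interaction could not be fitted with only the groups of a comparison, since it uses all 4. Signals of Smco1, Lrrc38 and Fn3k near background after denervation limit the size of their folds.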
